A study of Homo sapiens with 6 samples.

Results

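The genes described are 9 members of the p53 pathway, MDM2, MDM4, CDKN1A, CDKN1B, CDKN1C, GADD45A, SESN1, TP53I3 and FAS, and every array probe that the platform annotation assigns to one of these symbols. They had 13 probes among the 48803 on the array and are 9 of the 18665 genes with a named probe. The cells were HEK293T, a line of human embryonic kidney origin into which the SV40 large T antigen was introduced, and mRNA was read on 6 Illumina BeadChip arrays, all sections of 1 slide. The control group was 3 arrays of HEK293T cells, for which the labels name no treatment, and the transfected group 3 arrays of HEK293T cells given 4 µg of cloned hsa-miR-128 in a well of a 6-well plate. The labels do not say whether the controls received an empty plasmid, what promoter drove the clone, or how long after transfection the cells were harvested. The design text calls the arrays biological triplicates of 1 cell line; numbers 1 to 3 follow deposit order and pair no arrays.

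p53 is a transcription factor that is kept low by MDM2, a ubiquitin ligase, and its relative MDM4, and that accumulates after DNA damage and other stress. It then activates CDKN1A, which encodes the kinase inhibitor p21, genes of DNA repair and metabolism such as GADD45A, SESN1 and TP53I3, the death receptor FAS and, in a feedback loop, MDM2 itself. SV40 large T antigen binds p53 and blocks its activity as a transcription factor, so cells of this line are known for weak p53 responses. CDKN1B and CDKN1C encode p27 and p57, the other inhibitors of the Cip/Kip family, and are not classical p53 targets.

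The sequences that frame the comparison are those of the transfected microRNA and of promoters on which p53 is known to act. Both human miR-128 genes give the same 3p strand, a mature RNA of 21 bases, printed with its seed (bases 2 to 8) in capitals, from RefSeq on GRCh38.p14.
hsa-miR-128-3p: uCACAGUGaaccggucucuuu
RefSeq promoter windows of 300 bases (250 before and 50 after a transcript start, GRCh38.p14) were used for 7 of the 9 genes, 14 windows in all. They were searched for the p53 response element, a pair of motifs of 10 bases each, allowing 2 mismatches in all outside the fixed C and G of each motif and a spacer of up to 13 bases; the consensus reads the same on both strands. A pair was found in 3 of the 14 windows, 2 of them overlapping windows of MDM2 and 1 of FAS, and in 2.93% of all 35116 windows. It is in capitals in the window chr12:68808767-68809066 (plus strand) of MDM2 and in chr10:88991181-88991480 (plus strand) of FAS.
MDM2: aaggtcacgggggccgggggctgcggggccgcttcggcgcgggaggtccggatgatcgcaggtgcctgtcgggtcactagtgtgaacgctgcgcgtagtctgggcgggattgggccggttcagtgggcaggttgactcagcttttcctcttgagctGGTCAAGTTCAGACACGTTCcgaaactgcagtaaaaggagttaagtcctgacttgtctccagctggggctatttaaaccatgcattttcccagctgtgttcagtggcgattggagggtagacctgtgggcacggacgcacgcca
FAS: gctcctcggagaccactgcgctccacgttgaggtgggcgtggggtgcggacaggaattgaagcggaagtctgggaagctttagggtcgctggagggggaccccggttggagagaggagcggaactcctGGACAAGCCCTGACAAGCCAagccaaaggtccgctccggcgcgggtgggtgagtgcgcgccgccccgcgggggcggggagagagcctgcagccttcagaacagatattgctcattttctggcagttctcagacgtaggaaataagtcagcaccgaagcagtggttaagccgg
Each of these pairs had 2 mismatches and no spacer. The window of CDKN1A, chr6:36678464-36678763 (plus strand), had no such pair; the p53 sites known for this gene lie farther upstream. It held 4 matches to GGGCGG, the core of the binding site of SP1, counted on both strands with overlaps allowed and shown in capitals. Of all windows, 45% held at least 1 such match, and 12 of the 14 member windows did. These 14 windows belong to 7 genes and some of them overlap, so they are not separate promoters. The windows of MDM4 and TP53I3 held no match. A match is a match of letters and shows no binding.
CDKN1A: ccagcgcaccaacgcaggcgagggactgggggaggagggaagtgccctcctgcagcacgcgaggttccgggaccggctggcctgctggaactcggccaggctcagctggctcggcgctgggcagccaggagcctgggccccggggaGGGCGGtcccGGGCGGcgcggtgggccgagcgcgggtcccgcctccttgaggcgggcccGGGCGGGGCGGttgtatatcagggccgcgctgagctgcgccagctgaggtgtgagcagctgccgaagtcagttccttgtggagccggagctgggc

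The small number of arrays, 3 in each group, limits the precision of every value. Mean signal per array ran from 408 to 660, with 12995 to 14345 probes detected (detection p under 0.01) and on average 36.3 to 38.1 beads per probe. On the first principal component of the 9797 genes tested, which held 52.1% of the variance, controls stood between -32.15 and -13.69 and transfected arrays between -0.97 and 40.94, transfected array 3 being nearest to the controls. On the second, with 31.7%, control 1 (30.99) and transfected array 1 (22.46) stood apart from the other arrays, all below 0. Differences of the members that rest on these arrays are given with and without them. In a bulk measurement such as this one, fewer expressing cells and less RNA per cell cannot be told apart. Of 9 genes known from HEK293 lines, 6 were detected on all arrays, and NEFM, PAX2 and PAX8 on none; of 11 markers of other cell types with a named probe, 8 were detected on no array, CD14 on 1, and COL1A1 and COL3A1 on all 6. Of the detected markers, KRT8 was 2.03-fold lower in transfected cells (limma adjusted p = 0.0502), NEFL 1.61-fold lower (adjusted p = 0.0771), LIN28B 1.38-fold higher (adjusted p = 0.131) and COL1A1 1.65-fold lower (adjusted p = 0.126). The groups did not overlap for KRT8, NEFL and LIN28B, as for 32.8% of all genes in either direction. KRT8, NEFL, LIN28B and COL1A1 were chosen after their values were seen. Of the other detected markers, CDH2, KRT18 and COL3A1 had log2 differences of 0.02, -0.50 and -0.29. Their groups overlapped, with limma adjusted p of 0.538 to 0.951. The part of these differences in the results for the members was not tested.

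Of the 9 members, 6 had a probe detected on at least 3 arrays and were tested: CDKN1A, CDKN1B, CDKN1C, GADD45A, SESN1 and TP53I3, each detected on all 6 arrays by the probe that represents it. None passed the threshold, an adjusted p under 0.05 in limma after Benjamini-Hochberg adjustment over all 9797 genes. That was so of every gene tested: 0% of genes and 0.00704% of probes were called, while 28.5% of genes had an unadjusted p under 0.05 (16.1% lower and 12.4% higher). CDKN1C and CDKN1A were lower in transfected cells on all 3 arrays, with no overlap between the groups. GADD45A was higher by means, but 1 control stood among the transfected arrays. CDKN1B, SESN1 and TP53I3 overlapped. Groups did not overlap in 2 of the 6 members, both lower, against 32.8% of all genes in either direction, 18.1% lower and 14.7% higher, and 2 of the 6 had an unadjusted p under 0.05. With so few members and so large a background these counts are not particular to the members.

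**Figure D1:**
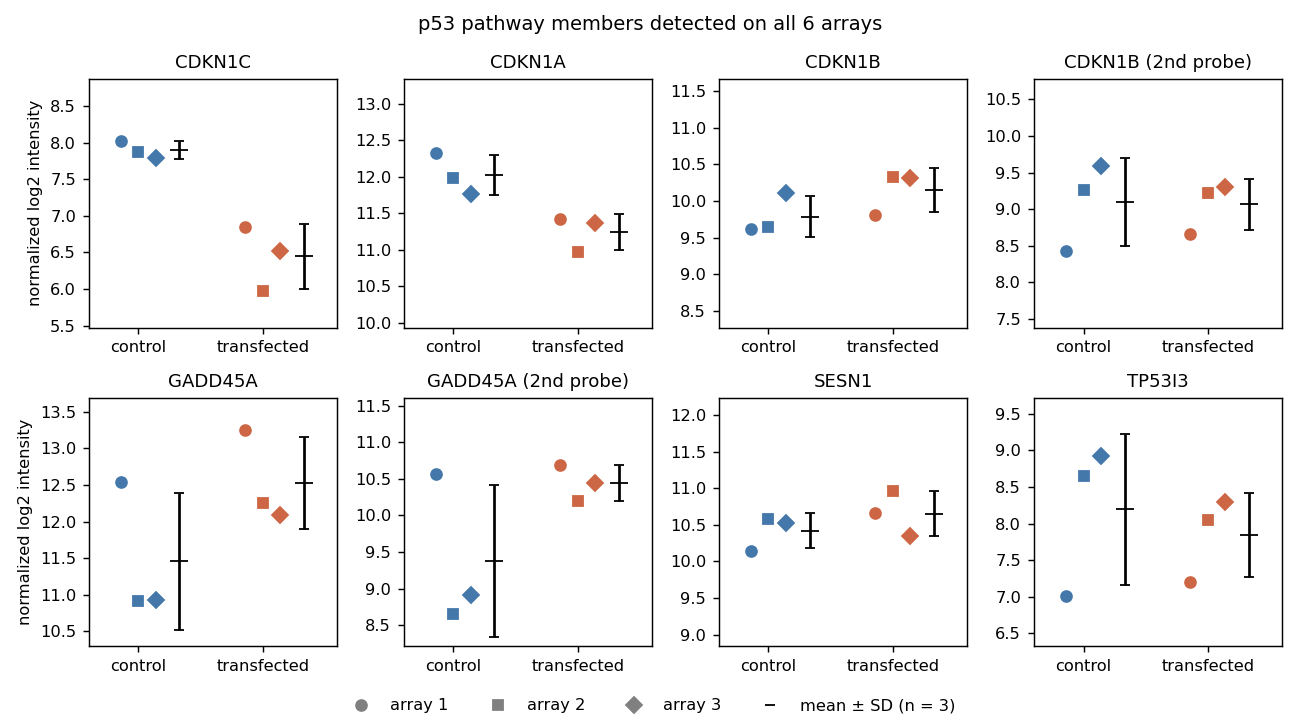
Normalized log2 intensity (vertical axis) of the 8 member probes detected on all 6 arrays, for control (blue) and transfected (orange) arrays, with array 1 as a circle, 2 as a square and 3 as a diamond, and bars for mean ± SD (n = 3). All panels span the same range of log2 units; CDKN1C and CDKN1A separate the groups, while in GADD45A control 1 lies beside the transfected arrays and in TP53I3 array 1 of either group is lowest.

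CDKN1C, which encodes p57, an inhibitor of cyclin-dependent kinases expressed from the maternal allele, had the largest difference among the members. Its normalized log2 intensities by array number were 8.03, 7.87 and 7.79 among controls and 6.85, 5.97 and 6.52 among transfected arrays. All transfected arrays lay below all controls, and the controls lay close together while the transfected arrays were more spread. The signals before normalization were 452, 316 and 372 in controls and 181, 184 and 223 in transfected arrays. The mean was 7.89 ± 0.12 (SD, n = 3) in controls and 6.45 ± 0.45 in transfected cells. The transfected level was 2.73-fold lower, a log2 difference of -1.45 ± 0.24 (SE), with a 95% interval of -2.00 to -0.90 and an adjusted p of 0.0502 (limma). This value missed the threshold narrowly and was shared by 138 genes; CDKN1C was 41st of the 9797 by unadjusted p. It passed under 10 of 19 alternatives, among them without transfected array 1 (-1.65, adjusted p = 0.0220), without transfected array 3 (-1.49, adjusted p = 0.0327) and without both control 1 and transfected array 1 (-1.58, adjusted p = 0.0207). In these fits, in the same order, 493, 1531 and 565 genes passed in all. The fit without both arrays was chosen after seeing the data. Without transfected array 2, the lowest, the difference was -1.21 (adjusted p = 0.226). Without background correction it was -0.74 (adjusted p = 0.0398). With position on the slide added to the fit, it was -1.02 ± 0.46 (SE, limma adjusted p = 0.152). The difference was -1.16 with an offset of 50, so its size depended on background correction and offset. On transfected array 2 the probe was just inside the detection limit, with a detection p of 0.00922. The lowest detected signals on transfected arrays 1 to 3 were 161, 184 and 180, beside 181, 184 and 223 for this probe.

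CDKN1A, which encodes p21, the p53 target that halts the cell cycle, was also lower. The probe's log2 intensities were 12.32, 11.99 and 11.77 among controls and 11.42, 10.96 and 11.36 among transfected arrays. The groups did not overlap, and the gap between control 3 and transfected array 1 was about as large as the differences among controls. Before normalization its signal was 6416, 3962 and 4238 in controls and 1868, 1961 and 3074 in transfected arrays. The transfected level was 1.71-fold lower, with a log2 difference of -0.78 ± 0.21 (SE, n = 3 per group; 95% interval -1.26 to -0.29; limma adjusted p = 0.0773). With 1 array left out the difference lay between -0.90 and -0.63, and none of these fits passed. Adding position on the slide to the fit left -0.32 (adjusted p = 0.608); sections A to C held the controls and D to F the transfected arrays, so position and group are hard to separate. A second probe of CDKN1A, annotated to the same transcript accession, was detected on no array, with detection p of 0.141 to 0.424.

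An exact two-sided permutation test over the 6 arrays gave p = 0.1 for CDKN1C and for CDKN1A, the smallest value that 3 against 3 arrays allow, so this test cannot reach 0.05. Over the other member probes tested its p was 0.2 to 0.9.

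CDKN1B encodes p27, which binds cyclin E and cyclin A complexes, and was read by a brighter and a second probe. The brighter probe had log2 intensities of 9.61, 9.64 and 10.11 in controls and 9.81, 10.33 and 10.32 in transfected arrays. The ranges overlapped, and its difference was 0.36 ± 0.22 (SE; 95% interval -0.15 to 0.87; limma adjusted p = 0.306). The second probe had 8.43, 9.26 and 9.60 in controls and 8.66, 9.23 and 9.31 in transfected arrays, a difference of -0.03 ± 0.32 (adjusted p = 0.960 over the 14200 probes). Array 1 of each group was lowest on the second probe, by 2.00-fold among controls and 1.52-fold among transfected arrays. Neither probe was called and the second lay near 0, so no direction of CDKN1B is set by these values. Whether the probes differ from each other was not tested. With arrays scaled to equal medians the brighter probe stood at 0.050, and with the slide section as covariate at -0.39. None of the 3 inhibitors of the Cip/Kip family was called. CDKN1C and CDKN1A had negative differences whose unadjusted 95% intervals did not reach 0. An unadjusted p under 0.05 was found for 28.5% of all genes. The interval of CDKN1B on its brighter probe included 0, and whether the 3 genes differ from each other was not tested.

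GADD45A, a stress protein that binds PCNA and acts in growth arrest and DNA repair, had agreeing probes. The brighter probe had log2 intensities of 12.54, 10.91 and 10.92 among controls and 13.24, 12.26 and 12.09 among transfected arrays. Controls 2 and 3 lay below every transfected array, but control 1 lay above transfected arrays 2 and 3. The second probe had 10.57, 8.65 and 8.91 in controls and 10.69, 10.19 and 10.44 in transfected arrays, with control 1 again above transfected arrays 2 and 3. The differences were 1.07 ± 0.47 (SE; 2.10-fold; adjusted p = 0.179 over genes) and 1.06 ± 0.46 (2.09-fold; adjusted p = 0.188 over probes), both by limma. Control 1 was 3.08-fold above the mean of the other controls on the brighter probe and 3.47-fold on the second, and the standard error over beads was 2.83% to 6.81% of the signal for the member probes tested. The within-group SD of GADD45A was larger than that of 98.6% of genes. Without control 1 the difference was 1.61 (adjusted p = 0.0906), without transfected array 1 it was 0.71 (adjusted p = 0.312), and without both it was 1.25 (adjusted p = 0.0211), past the threshold. The alternative without both was chosen after seeing the data, and under it 565 genes passed in all. With position on the slide in the fit, the difference was 3.15 (adjusted p = 0.0219). Position and group are hard to separate in that fit, under which 1108 genes passed.

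Its relatives GADD45B and GADD45G, also stress-induced, shared the arrangement. GADD45B had log2 intensities of 9.57, 7.97 and 7.80 in controls and 9.66, 9.11 and 10.09 in transfected arrays, so that control 1 stood 3.20-fold above the other controls and above transfected array 2. The difference was 1.17 ± 0.46 (SE, limma adjusted p = 0.144) and 1.73 without control 1 (adjusted p = 0.0752). Without control 1 and transfected array 1 it was 1.71 (adjusted p = 0.0331). That fit was chosen after seeing the data, and 565 genes passed under it. GADD45G had 6.52, 5.73 and 4.999 in controls and 6.58, 6.50 and 6.29 in transfected arrays. It was detected on 1 of the 3 controls, and its groups overlapped, with control 1 above transfected arrays 2 and 3. By group means it was at least 1.28-fold higher in transfected cells, a bound that leaves out the spread between arrays. It met the filter only through the transfected arrays, so its test gives no support; its log2 difference was 0.71 with all arrays, 1.09 without control 1, 0.33 without control 3 and 1.03 without control 1 and transfected array 1. None of the GADD45 genes passed with all arrays, and the part of control 1 in these differences beyond the values given was not tested.

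SESN1, a sestrin that restrains the growth kinase complex mTORC1, had log2 intensities of 10.15, 10.59 and 10.53 in controls and 10.66, 10.96 and 10.34 in transfected arrays. The ranges overlapped, and the difference was 0.23 ± 0.22 (SE; 95% interval -0.27 to 0.73; limma adjusted p = 0.500), between 0.078 without transfected array 2 and 0.39 without transfected array 3, and turning to -0.087 with arrays scaled to equal medians, a scaling that moved the median of all genes from -0.03 to -0.33.

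TP53I3, a quinone oxidoreductase also known as PIG3, varied more within than between groups. Its probe had log2 intensities of 7.005, 8.65 and 8.92 among controls and 7.20, 8.05 and 8.29 among transfected arrays. Array 1 of each group was lowest, by 3.44-fold among controls and by 1.96-fold among transfected arrays, and these are the arrays on which GADD45A was highest within its group. The difference was -0.34 ± 0.50 (SE; 95% interval -1.48 to 0.79; limma adjusted p = 0.669), and 98.9% of genes had a smaller within-group SD. Without control 1 it was -0.94 (adjusted p = 0.156), without control 3 it was 0.019 (adjusted p = 0.985), without transfected array 1 it was -0.018 (adjusted p = 0.986), and without control 1 and transfected array 1 together it was -0.61 (adjusted p = 0.0915). With position on the slide in the fit, it was -2.60 (adjusted p = 0.0244). Position and group are hard to separate in that fit, under which 1108 genes passed. The second probe of TP53I3 was detected on control 3 alone.

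**Figure D2:**
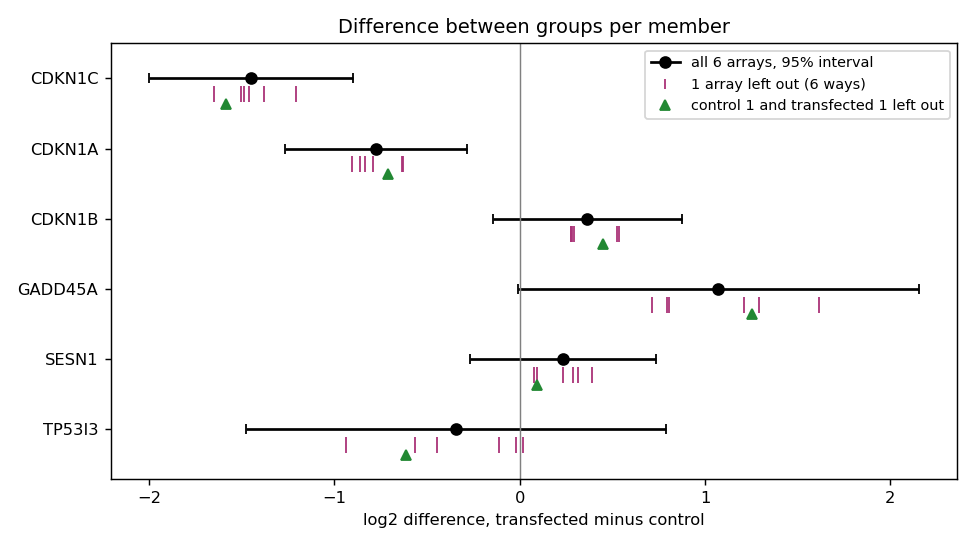
Log2 difference, transfected minus control (horizontal axis), of the 6 members tested, as points with 95% intervals over all 6 arrays, ticks for the 6 fits with 1 array left out and triangles for the fit without control 1 and transfected array 1. The intervals of CDKN1C (-2.00 to -0.90) and CDKN1A (-1.26 to -0.29) lie below 0; those of the others include 0, and the ticks of GADD45A and TP53I3 spread widest.

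The regulators MDM2 and MDM4 and the receptor FAS were not detected on any array and were not tested. MDM2 had signals of 160, 134 and 159 in controls and 141, 168 and 168 in transfected arrays, with detection p from 0.0184 to 0.0593. The median signal of all 48803 probes, also before background correction, was 151, 125 and 150 in controls and 134, 152 and 145 in transfected arrays. The MDM2 signals were 84.4% to 93.3% of the lowest detected signal on the same array, so MDM2 stood near the detection limit in both groups. MDM4, which binds p53 and blocks its activation domain, reached 67.6% to 87.5% of that limit, with detection p from 0.0632 to 0.887. FAS, whose ligand triggers apoptosis, reached 73.4% to 88.85%, with detection p from 0.0237 to 0.431. Each had 1 probe, so a transcript that this probe does not match would not be seen, and signals this low say only that the transcripts were not well above background. In the fit without a filter on dim probes, the differences of MDM2, MDM4 and FAS were 0.20 ± 0.13, 0.29 ± 0.16 and 0.17 ± 0.19 (SE), with adjusted p of 0.497 to 0.786 over all 48803 probes. The p53 motif pairs printed above for MDM2 and FAS thus belong to genes not well above background on these arrays.

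**Figure D3:**
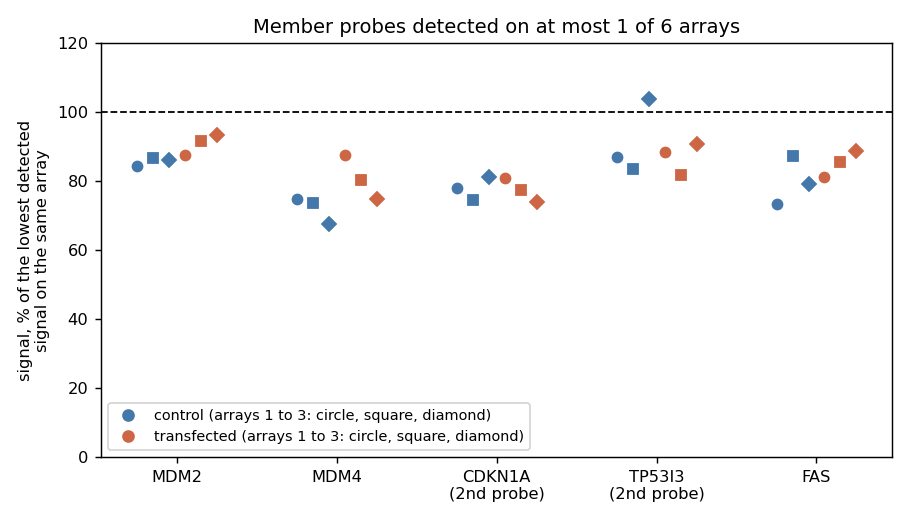
Signal before normalization (vertical axis), as a percentage of the lowest signal among detected probes of the same array (dashed line), for the 5 member probes detected on at most 1 array, with control arrays in blue and transfected in orange. MDM2, MDM4 and FAS stay below the line on every array, and the second TP53I3 probe passes it on control 3 alone, at 103.8%.

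Genes of the pathway beyond the members were read from lists. Of 61 other genes activated by p53, 48 were tested; 26 were higher and 22 lower, the median log2 difference was 0.04 against -0.03 for all genes, and none was called by limma. Of the 48, 10 (20.8%) had an unadjusted p under 0.05, a smaller share than the 28.5% of all genes. Among those higher, PPM1D, a phosphatase that switches off p53, had a log2 difference of 0.77 ± 0.20 (SE; limma adjusted p = 0.0733), and PMAIP1, the BH3-only protein NOXA, 0.92 ± 0.29 (adjusted p = 0.0950). THBS1, an antiangiogenic matrix protein, was at least 1.72-fold higher; it was detected on 1 of the 3 controls and met the filter only through the transfected arrays, so its test gives no support. In PMAIP1 control 1 (13.44) lay above transfected array 3 (13.42), and its difference was 1.23 without control 1 (limma adjusted p = 0.0781). Without control 1 and transfected array 1 it was 1.11 (adjusted p = 0.0336). That fit was chosen after seeing the data, and 565 genes passed under it. Among those lower were SFN, the 14-3-3 sigma protein of G2 arrest, 2.02-fold, STEAP3, a ferrireductase, 1.89-fold, and the apoptosis effector BAX, 1.53-fold, with adjusted p of 0.0733 to 0.144. The list had no common direction.

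Of 37 proteins that modify or bind p53 or its partners, 33 were tested, 20 higher and 13 lower, with a median of 0.19. This median rested on control 1: without it, the median was 0.027, with 17 genes higher and 16 lower, and without control 1 and transfected array 1 it was 0.049. None was called, and 8 of the 33 (24.2%) had an unadjusted p under 0.05, against 28.5% of all genes. SIRT1, which deacetylates p53, had a log2 difference of 1.01 ± 0.19 (SE; limma adjusted p = 0.0502). TP53BP2, which steers p53 towards apoptosis genes, had 0.69 ± 0.16 and the ubiquitin ligase RCHY1 0.96 ± 0.24, with adjusted p of 0.0630 and 0.0675. These 3 separated the groups. TRIM28, a corepressor and MDM2 partner, had -0.63 ± 0.21 and also separated them. PPP1R13B (-0.76 ± 0.28) and WRAP53 (-0.35 ± 0.26) overlapped, and adjusted p over TRIM28 and these ran from 0.104 to 0.400. Of the 33, groups did not overlap for 9 genes that were higher and 1 that was lower. The shares among all genes were 14.7% higher and 18.1% lower, and no set test was run. With arrays scaled to equal medians the list's median was -0.18, with that of all genes at -0.33.

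Among 24 partners of the Cip/Kip inhibitors, cyclins, kinases and the ligases that degrade p21 and p27, 23 were tested, 11 higher and 12 lower, with none called and 3 (13%) at an unadjusted p under 0.05, against 28.5% of all genes. DTL, which directs the CUL4 ligase to p21 on chromatin, had log2 intensities of 9.12, 9.29 and 9.41 in controls and 10.54, 10.66 and 9.96 in transfected arrays. All transfected arrays lay above all controls, and DTL was 2.17-fold higher (1.11 ± 0.22 SE; limma adjusted p = 0.0514). CUL4A, the scaffold of that ligase, was 1.65-fold higher on the probe that represents it (0.72 ± 0.18; adjusted p = 0.0677), while the mean of its 2 kept probes gave 0.43 (adjusted p = 0.246). RBX1, the RING subunit of that ligase, had -0.44 ± 0.19 (adjusted p = 0.172). CCND2 (0.37), RNF123 (-0.37) and CDK2 (-0.32) overlapped between groups, with adjusted p of 0.235 to 0.335. The INK4 inhibitors, which bind CDK4 and CDK6, did not share a direction: CDKN2A had -0.75 ± 0.28, CDKN2B 0.65 ± 0.27 and CDKN2D -0.19 ± 0.40, with adjusted p of 0.133 to 0.774 and overlapping groups. CDKN2B stood at 0.38 without transfected array 1.

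Of 11 genes downstream of FAS, 8 had a named probe and 4 of these were tested, all with negative differences: FADD -0.75 ± 0.27 (SE), CFLAR -0.61 ± 0.28, and DAXX and BID nearer to 0, with limma adjusted p of 0.124 to 0.933. FADD, the adaptor that links FAS to caspases, separated the groups, although transfected array 3 (10.50) lay close to the controls (10.58 to 10.64). Among receptors related to FAS, TNFRSF1A, a receptor of tumour necrosis factor, had log2 intensities of 9.96, 10.15 and 9.93 in controls and 8.72, 8.94 and 9.22 in transfected arrays. It was 2.08-fold lower (-1.05 ± 0.19; adjusted p = 0.0502), with no overlap. TNFRSF10A (-0.29), TNFRSF10B (-0.18) and TNFRSF21 (0.12) overlapped, with adjusted p of 0.567 to 0.716.

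Cell cycle genes known to be lowered through p21 and the DREAM repressor complex showed no common direction. Of 36, 34 were tested, 14 higher and 20 lower, with a median of -0.06, none called by limma and 6 (17.6%) at an unadjusted p under 0.05, against 28.5% of all genes. The mitotic kinesin KIF20A (-0.70 ± 0.18 SE), the kinase PLK1 (-0.63 ± 0.22) and the anaphase activator CDC20 (-0.63 ± 0.24) had negative differences with separate groups. The phosphatase CDC25A (0.72 ± 0.23) had a positive difference with separate groups. The exchange factor ECT2 (0.58 ± 0.24) and the checkpoint protein MAD2L1 (0.49 ± 0.22) had positive differences with overlapping groups. Adjusted p over these 6 ran from 0.0691 to 0.190.

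**Figure D4:**
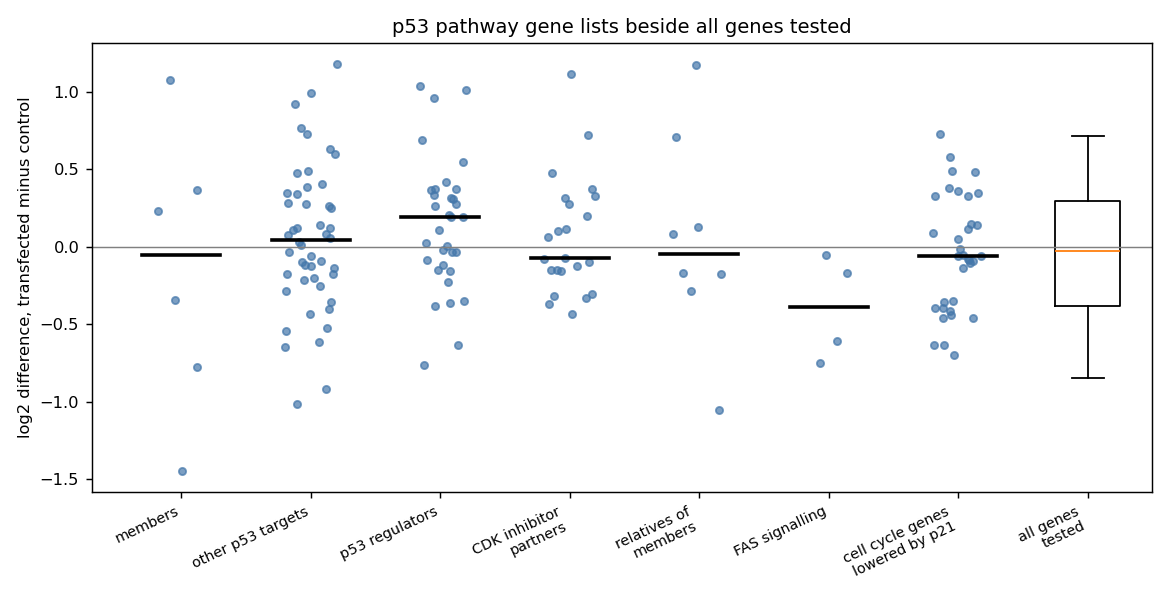
Log2 difference, transfected minus control (vertical axis), of each gene tested in the members and 6 related lists, with lines for list medians, beside a box of all 9797 genes (box for quartiles, whiskers from 5% to 95%). The medians of the members (-0.06), other p53 targets (0.04) and cell cycle genes (-0.06) lie near that of all genes (-0.03); the FAS signalling list holds 4 genes.

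By Pearson correlation over the 6 arrays, the genes whose profile was most like that of CDKN1A were TP53INP2, NLGN2 and SEMA6A (r = 0.997, 0.996 and 0.996). Those most like GADD45A were CNOT8, STX11 and LSM6 (r = 0.998, 0.997 and 0.997). With 9797 genes and 6 arrays that share groups and depth, values this high are a description of these arrays. Each gene most like GADD45A was also higher on control 1 than on the other controls, for instance CNOT8 with 10.15 against 9.66 and 9.69.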

How the data were processed

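Gene expression was measured in 3 control and 3 transfected arrays of HEK293T cells. Per the file headers, the deposited table before normalization gives a mean signal intensity for each probe and array. It also gives, per the file headers, the count of beads, their standard error and the detection p-value. The submitters' processing notes name BeadStudio. Another deposited table gives processed intensities of the authors on a linear scale, each column a straight line of that array's signal (Pearson r at least 0.999997), uncentred, with medians of 9.47 to 15.5 and 26.5% to 28.1% of values below 0; which normalization was used is not stated.

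Background was estimated through the detection p and subtracted from signals by the normexp model (limma 3.58.1, R 4.3.3); signals were then given an offset of 16, quantile normalized and log2 transformed. The rows of 1 duplicated probe were averaged. Of 48803 probes, 27578 had 1 gene in the platform annotation, updated through the gene identifier to RefSeq symbols (GRCh38.p14), 13 had several and 21212 were unnamed here. The filter required detection (p under 0.01) on 3 or more arrays and left 14200 probes. The kept probe with the highest mean represented each gene (9797 genes). Groups were compared with lmFit and eBayes, two-sided, with Benjamini-Hochberg adjustment over all genes, and separately over all kept probes. For genes undetected on some arrays of the dimmer group, "at least" sets the brighter group's mean against, per array, the higher of the lowest detected signal and the probe's own. The fit was tested on simulated data.

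The members and lists were chosen with earlier results of these data known. Named in the text were all members; from each list the genes past the threshold or, with none, the 3 of smallest p per direction; and the 3 genes most like CDKN1A and GADD45A. BID was named outside this rule, after its value was seen, to complete the 4 tested genes of FAS signalling. Of the marker lists detection is given, with the differences of 4 markers chosen after their values were seen and those of CDH2, KRT18 and COL3A1. The same likeness for MDM2 was not computed because MDM2 was not tested. Alternatives changed the background correction, normalization, offset, filter, probe choice, array weights, slide section and arrays used. A test of seed matches was not run.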

Additional observations from a re-analysis of the deposited data

How the results depend on the processing

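No member passed the threshold with all arrays and main settings, and the counts of calls depended strongly on the processing. Against 0 genes called, the count was 464 without background correction, 273 after cyclic loess, 373 with arrays scaled to equal medians, 386 with an offset of 50, 1 in the authors' processed table, 328 among genes detected on all 6 arrays, 5002 with array weights, 1108 with the slide section as covariate, 339 with trended and robust variances and 565 without control 1 and transfected array 1 together. With 1 array left out it ran from 0 to 1531. Against 1 probe called, the counts in the same order were 343, 0, 88, 0, 2, 258, 7036, 1374, 0 and 452, and 0 to 1647 with 1 array left out.

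CDKN1C kept its sign throughout (-1.76 to -0.74 over 19 alternatives, adjusted p 0.000447 to 0.248). With the slide section as covariate it stood at -1.02 (adjusted p = 0.152). It passed without background correction (-0.74), after cyclic loess (-1.45), with equal medians (-1.74), with an offset of 50 (-1.16), among genes detected on all arrays (-1.45), with array weights (-1.76), with trended and robust variances (-1.45) and without control 1 and transfected array 1 (-1.58); with 1 array left out it lay between -1.65 and -1.21. CDKN1A kept its sign too (-1.11 to -0.32, adjusted p 0.00177 to 0.608) and passed without background correction (-0.74) and with array weights (-0.88). GADD45A stayed positive and passed with array weights (1.27), with the slide section (3.15) and without control 1 and transfected array 1 (1.25); with 1 array left out it lay between 0.71 and 1.61. Its second probe passed with array weights (1.32) and without those 2 arrays (1.54). TP53I3 passed as lower with the slide section (-2.60) and lay between -0.94 and 0.019 with 1 array left out. CDKN1B turned to -0.39 with the slide section and SESN1 to -0.087 with equal medians, neither past the threshold. The cause of these changes was not tested.

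Of 718 values for the 36 genes named from lists and the second probes of CDKN1B and GADD45A, 617 kept their direction and side of the threshold, 91 passed, 31 of them with array weights, and 10 turned sign. The second CDKN1B probe ran from -0.36 to 0.22 with 1 array left out, turning positive without control 2 (0.055), control 3 (0.22) or transfected array 1 (0.17). CDKN2D turned with the slide section (1.48) and without control 1 (0.12) or transfected array 2 (0.08), lying between -0.59 and 0.12 with 1 array left out, SFN with the slide section (0.031), TNFRSF10B with the slide section (0.42), and TNFRSF21 with equal medians (-0.20) and without transfected array 1 (-0.0085), up to 0.26 with another array left out. Scaling to equal medians moved the median of all genes from -0.03 to -0.33. In that fit the list medians were -0.40 for Cip/Kip partners, -0.39 for cell cycle genes, -0.18 for p53 regulators and -0.23 for p53 targets. That of FAS signalling was -0.70. Main settings gave -0.07 for Cip/Kip partners and -0.39 for FAS signalling. With the slide section the list medians were 0.35 for relatives of members, -1.32 for FAS signalling and 0.20 for cell cycle genes. For these lists the main fit gave -0.05, -0.39 and -0.06. INK4 inhibitors stood at 1.48, against -0.19 in the main fit. With 3 genes tested, both of these medians are the values of CDKN2D. The FAS signalling median was -0.10 without a filter and -0.15 with a detection p under 0.05, and lay between -0.58 and -0.26 with 1 array left out; that of cell cycle genes lay between -0.080 and 0.011, that of p53 regulators between 0.027 and 0.20, and that of p53 targets between -0.014 and 0.088. With 1 array left out, the difference of 13 of the 36 genes named from lists moved by over 1.5 times or turned sign. No paired analysis was possible because the labels number no replicates. Signal close to background limits MDM2, MDM4 and FAS.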
